A study of Rattus norvegicus with 4 samples.

Results

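The 4 rat astrocyte libraries listed 40 loci named for proteins of the cytosolic ribosome, out of 17290 loci in the tables. A locus was taken when its gene name began with Rpl or Rps followed by a digit, by p and a digit or by a; the Rps6k kinase genes were left out. Counts of the 53 listed transcripts with such names, of 20524 in all, were summed by gene name and chromosome. The 40 loci comprised 22 of the large (60S) and 18 of the small (40S) subunit. The rule that took them used names only and no measured value, but it was set with earlier results of these data known. The tables hold long noncoding RNA transcripts, and all 53 carry NONCODE identifiers. They are therefore transcripts catalogued as noncoding at ribosomal protein genes, and are not listed as the coding messenger RNAs. Whether they are noncoding was not tested. How reads were assigned and whether strand was used is not given in the sources used here. Where a listed transcript overlaps the coding messenger RNA, reads of the 2 cannot be told apart.

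Astrocytes came from the cerebral cortex of Wistar rats taken within a day of birth. They were grown on coverslips above neuron cultures, held apart from them by paraffin dots. The control group (n = 2) was untreated. The other group (n = 2), labelled ischemic preconditioning and called OGD here, was put in glucose-free medium at 1% oxygen for 45 min (oxygen-glucose deprivation). It was then returned to normal medium and oxygen for 24 h before total RNA was taken. Nothing in the labels says that the replicates were separate cultures. The p-values thus measure the spread among these 4 libraries alone, and that spread may be technical. The comparison asks which ribosomal protein loci differ a day after this short deprivation.

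A ribosome is built from ribosomal RNAs and a full set of ribosomal proteins, which cells make in matched amounts and at high cost. Their messenger RNAs begin with a run of C and T (U) letters, the 5′ terminal oligopyrimidine (TOP) tract. When nutrients or oxygen are short, mTOR signalling falls and the translation of TOP messenger RNAs is held back, with the messenger RNAs themselves often kept in store. Many ribosomal protein genes also carry small nucleolar RNAs (snoRNAs) in their introns, and the genome holds many pseudogene copies of them.

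Runs of C and T were longer at the starts of member genes than at those of coding genes at large. Windows from 25 bases before to 20 bases after the annotated start were taken from RefSeq (rat build GRCr8), where 31 of the 39 distinct gene names had a sequence. The 8 below belong to loci at the top of the level order or at the ends of the order of differences described later. Other such members with a window, Rpsa and Rpl17 among them, are not shown. The windows are starts of the coding genes, and whether the listed transcripts begin there was not examined. Capitals mark the longest unbroken run of C and T.
Rps24: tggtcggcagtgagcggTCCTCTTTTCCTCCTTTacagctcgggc
Rpl41: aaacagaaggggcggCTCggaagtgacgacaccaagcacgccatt
Rps2: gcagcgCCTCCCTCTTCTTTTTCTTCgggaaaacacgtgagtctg
Rps16: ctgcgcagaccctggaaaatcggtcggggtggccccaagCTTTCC
Rps27: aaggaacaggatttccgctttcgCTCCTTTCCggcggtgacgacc
Rpl21: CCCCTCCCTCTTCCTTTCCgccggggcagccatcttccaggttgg
Rpl4: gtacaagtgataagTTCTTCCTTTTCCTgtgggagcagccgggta
Rps4x: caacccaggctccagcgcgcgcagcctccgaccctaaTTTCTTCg

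These windows lie at chr16:96492-96536 (Rps24), chr10:14251823-14251867 (Rps2), chr1:92770633-92770677 (Rps16) and chr8:73566452-73566496 (Rpl4) on the plus strand. Those of Rpl41 (chr7:1563478-1563522), Rps27 (chr2:177964587-177964631), Rpl21 (chr12:13386134-13386178) and Rps4x (chrX:71342902-71342946) are on the minus strand. In Rps24 the run of 17 spans the start, from 8 bases before it to base 9. In Rps2 the run holds 20 bases and in Rpl21 19 bases, the latter ending 7 bases before the annotated start. The window of Rpl41, whose locus was second in level, has no run above 3. Over the 31 members the median longest run was 10 bases, against 5 over the 19005 coding genes with such a window. A run of at least 8 was found in 21 members (67.7%) and in 17.1% of all coding genes. Short motifs were searched on both strands of the 300 bases from 250 before to 50 after the start. CTTTCC, which can lie inside a C and T run, was in 17 members (54.8%) against 26.3% of all. CTTCCGG was in 10 members (32.3%) against 11.2%. These are matches of letters only.

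Levels were compared between loci per length, as summed deposited FPKM (fragments per kilobase of transcript and 1000000 mapped). Mean levels of the loci reported singly ran from 0.143 at Rpl3 to 92.2 at Rps24. Rps24 encodes a 40S protein whose gene is mutated in some patients with Diamond-Blackfan anaemia. Its FPKM was 92.0 and 84.2 in the control libraries and 93.7 and 99.1 in the OGD libraries, which places it 56th of all 17290 loci. In the tables' coordinates it lies on chromosome 16 from 757501 to 762091. It held 22.6% of the counts of all 40 loci, and the 5 loci with the most counts held 52.0%.

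Below it came Rpl41.1 and Rps2, with a mean FPKM over the 4 libraries of 43.5 ± 8.62 and 29.7 ± 10.9 (SD, n = 4). Rpl41 is a very short basic protein of the 60S subunit, and Rps2 lies by the messenger RNA entry of the 40S subunit. Their SDs, taken over both groups, overlap, but Rpl41.1 was the higher in each library. It had 38.9 and 33.8 in control and 51.7 and 49.9 in OGD, against 35.2, 27.2, 40.8 and 15.6 for Rps2. The SDs of Rps2 and Rps16 (28.5 ± 3.47), whose protein touches the transfer RNA in the P site, overlap too. Rps2 was above Rps16 in all libraries but OGD library 2, where Rps16 had 28.8. Lower levels were those of Rpsa, also known as the laminin receptor precursor, at 20.5 ± 1.33, and of Rps27, a zinc finger protein, at 16.9 ± 0.716. Below them stood Rpl21 at 15.7, Rps21.1 at 11.7, Rpl14 at 10.1 and Rpl30 at 9.98.

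At the low end Rpl3 (0.143), Rpl29 (0.517), Rpl36a (0.639), Rps10 (0.695), Rps23 (0.796) and Rps4x (0.814) had a mean FPKM under 1. Rpl3 lines the peptidyl transferase centre and Rps23 the decoding centre. The listed transcripts thus stood at very unequal levels between loci, and levels of the proteins were not measured. The 60S and 40S loci had similar medians, 3.63 and 3.80. Over the 35 members with enough counts to test, the median was 3.91, against 2.16 over all 9581 tested loci.

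**Figure D1:**
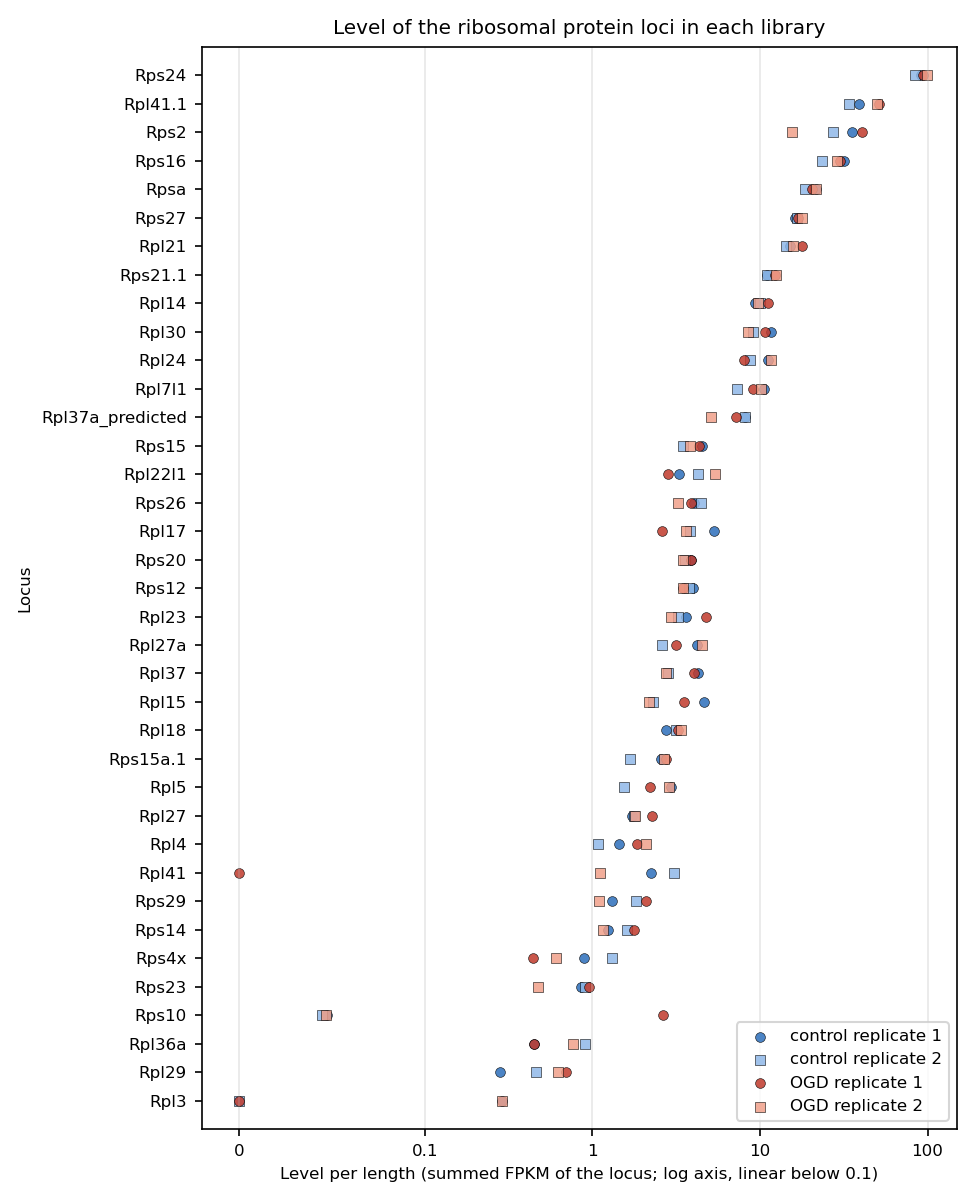
Summed FPKM of 37 loci in each library, on a log axis that is linear below 0.1; blue marks are control, red marks OGD. Rps24 stands highest at 84.2 to 99.1, and most loci have their 4 marks close together. Rps2, Rpl41, Rps10, Rps4x, Rpl29 and Rpl3 are among those spread out.

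RefSeq lists 77 coding ribosomal protein symbols for the rat, and 37 of them had a locus here. They were 19 of 46 large subunit and 18 of 31 small subunit symbols. The other member names were the paralogs Rpl22l1 and Rpl7l1. All 39 names lay on the chromosome where RefSeq places the gene. The same annotation names 408 pseudogenes for these genes, with a median of 10 each and the most, 34, for Rps2. Reads from such near-identical copies could be split or misplaced, and how they were treated is not given in the sources used here, so each locus's count is uncertain to that extent.

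The loci taken as a whole stood at a similar level in both groups. Summed counts were 8001 and 7859 in the control libraries and 8392 and 8142 in the OGD libraries. As shares of all lncRNA counts these were 0.307% (95% Wilson interval 0.300 to 0.314), 0.299% (0.292 to 0.305), 0.317% (0.310 to 0.324) and 0.324% (0.317 to 0.331); the intervals cover counting error only. In counts per 1000000 of the normalised library (CPM), the sums were 3022 ± 155 in control and 3278 ± 165 in OGD (SD, n = 2). The ratio was 1.08, a log2 difference of 0.12 against a spread of 0.10 between libraries of a group. Both OGD libraries lay above both control libraries, in CPM by little: the higher control library had 3132 and the lower OGD library 3161. On other scales the spread was smaller. As summed FPKM the log2 difference was 0.12 against a spread of 0.06. As a share of all lncRNA counts it was 0.08 against 0.04. The 60S loci summed to 1263 and 1263 in control and to 1340 and 1448 in OGD, and the 40S loci to 1649 and 1869 against 1822 and 1947. In bulk RNA, fewer cells of a type and less RNA per cell cannot be told apart.

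No ribosomal protein locus passed the test between OGD and control. Of the 40 loci 35 passed the filter on low counts, 20 of the 60S and 15 of the 40S subunit. None of the 35 had an edgeR quasi-likelihood adjusted p under 0.05, where 8 of all 9581 tested loci did (0.0835%). The smallest adjusted p among the 35 was 1.00. At an unadjusted p under 0.05 there was 1 member, against 2.33% of all tested loci. DESeq2 gave 0 calls among the 35 (0.404% of all loci with an adjusted p) and 0 at an unadjusted p under 0.05 (1.39%).

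The log2 fold change, OGD over control, was above 0 in 23 of the 35 (65.7%; 49.7% of all tested loci) and below 0 in 12. Its median was 0.09, against -0.0018 over all tested loci. By subunit it was above 0 in 12 of 20 60S loci and in 11 of 15 40S loci. In 31 of the 35 the log2 fold change was under 0.5 in size. The 95% interval lay inside a 2-fold change in both directions for 22 of the 35 (62.9%), against 35.7% of all tested loci. For the other 13 a 2-fold difference was within the interval. The CPM of the groups did not overlap at 13 of the 35 loci (37.1%; 28.0% of all tested loci), 8 of them higher in OGD and 5 lower. Of the marker lists described at the end, that of endothelial and mural cells had counts for 2 of 7 names, Abcc9 and Pecam1. They summed to 3.64 and 7.57 CPM in control and to 32.0 and 25.0 in OGD, with 1 name tested and 0 called. The part of such cells in the differences at ribosomal protein loci was not tested.

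**Figure D2:**
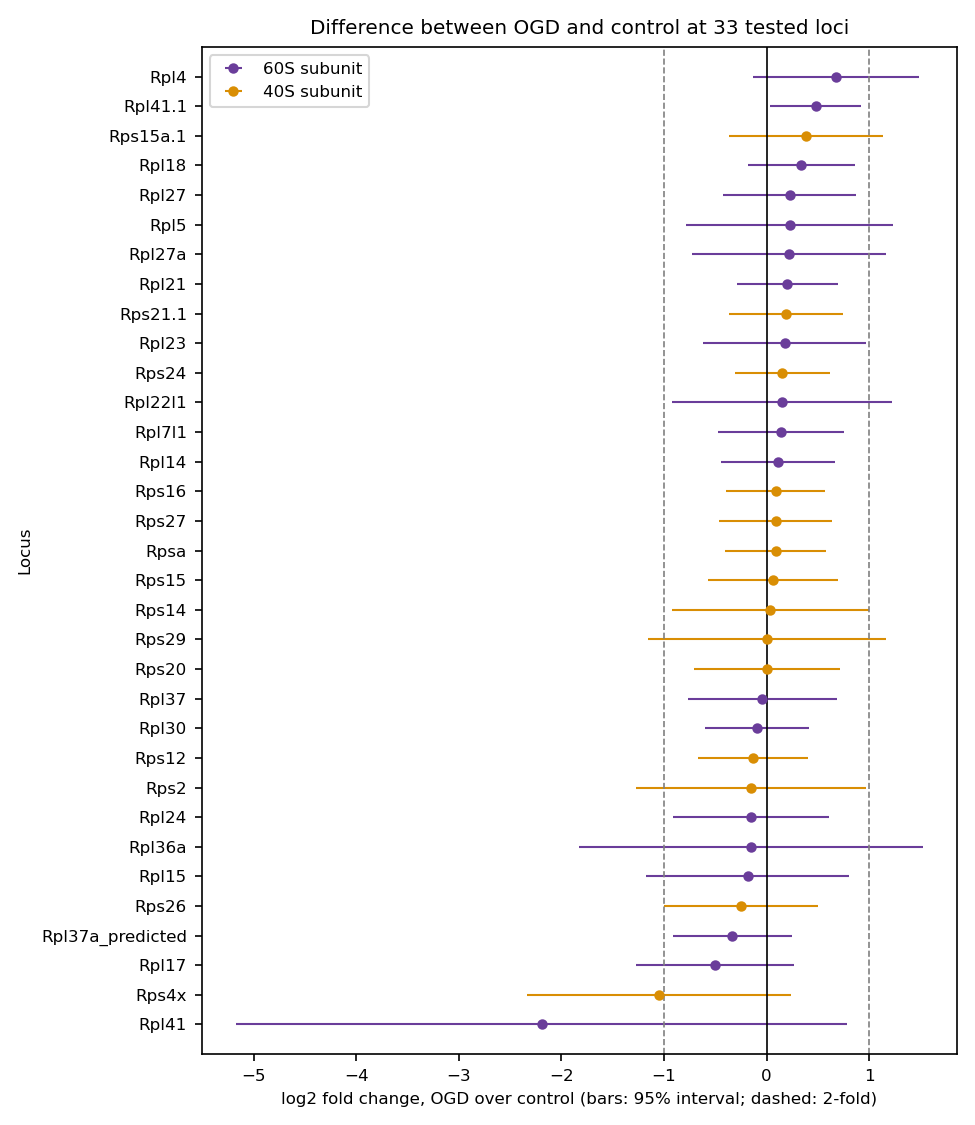
Log2 fold change, OGD over control, of 33 tested loci, with 95% intervals; purple is the 60S and orange the 40S subunit, and dashed lines mark a 2-fold difference. All intervals but that of Rpl41.1 include 0, and that of Rpl41 is the widest.

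Among the 60S proteins, Rpl41.1 had the lowest unadjusted p. Its counts were 545 and 520 in control and 727 and 699 in OGD, or 203 ± 6.26 against 283 ± 12.4 CPM (SD, n = 2). Both OGD libraries stood clear of both control libraries. The log2 fold change was 0.48 with a standard error (SE) of 0.17 and a 95% interval of 0.03 to 0.93 (edgeR unadjusted p = 0.0400, adjusted p = 1.00). The transcript listed as Rpl41, at the same place on chromosome 7 (2972897 to 2973930, within 2972895 to 2973953 for Rpl41.1), went the other way. Its counts were 22 and 32 in control and 0 and 11 in OGD, all far below those of Rpl41.1. Its log2 fold change was -2.19 with an interval of -5.17 to 0.79 (edgeR unadjusted p = 0.116). Because the 2 overlap, the counting could split their reads, and with the names joined the log2 fold change was 0.42 (unadjusted p = 0.0631). A further overlapping transcript, gasy, held 3 counts in each control library and 0 in each OGD library.

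Rpl4, which sends an extension into the peptide exit tunnel, had the largest positive log2 fold change. Its counts were 33 and 26 in control and 42 and 48 in OGD, and the groups did not overlap. The log2 fold change was 0.68 (SE 0.31, interval -0.13 to 1.48, edgeR unadjusted p = 0.0834). Rpl18 had 181 and 177 counts in control and 213 and 221 in OGD, and its groups also stood apart, with a log2 fold change of 0.34 (SE 0.20, interval -0.18 to 0.86). Rpl21, with 235 and 237 against 278 and 246 counts, had 0.20 (SE 0.19).

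Other 60S loci lay lower in OGD. Rpl17 lies at the rim of the exit tunnel, and its counts were 179 and 137 in control and 88 and 123 in OGD. Its groups did not overlap in CPM, and its log2 fold change was -0.50 (SE 0.30, interval -1.28 to 0.27). Without OGD library 1 it was -0.21, and without OGD library 2 it was -0.85. Rpl37a, a zinc finger protein listed as Rpl37a_predicted, had 152 and 154 against 134 and 101 counts, a log2 fold change of -0.33 (SE 0.22). In Rpl15 the groups overlapped: 78 and 44 counts in control, 64 and 39 in OGD (log2 fold change -0.19). Rpl30 (378 and 313 against 347 and 276 counts, -0.09) and Rpl14 (161 and 181 against 191 and 166, 0.11) overlapped as well. Rpl36a had 7 and 15 against 7 and 12 counts, and a 2-fold difference either way was within its interval (-1.83 to 1.52). The paralog Rpl22l1 had 52 and 66 counts in control and 46 and 79 in OGD. A further 7 tested 60S loci (Rpl24, Rpl7l1, Rpl23, Rpl27a, Rpl37, Rpl5 and Rpl27) had log2 fold changes from -0.15 to 0.23.

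Among the 40S proteins several of the most abundant loci differed little. Rps24 had 1797 and 1739 counts in control and 1830 and 1943 in OGD. The OGD library 1 value, 689 CPM, lay between the control values of 654 and 693. The log2 fold change was 0.15 (SE 0.18), and the interval of -0.31 to 0.62 leaves out a 2-fold change. Rpsa had 403 and 370 against 383 and 404 counts, with a log2 fold change of 0.09 (interval -0.40 to 0.58). Rps16 (556 and 445 against 516 and 503 counts) and Rps27 (245 and 264 against 252 and 268) also had 0.09 each, with intervals inside a 2-fold change. In these 4 loci the groups overlapped. Rps21.1 had 137 and 144 counts in control and 153 and 155 in OGD, and the lower OGD library stood just above the higher control one, at 57.6 against 57.4 CPM.

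The 40S loci at the ends of the order were low in counts. Rps4x, the X-linked form of a protein that has a Y-linked counterpart in some mammals, had 16 and 25 counts in control and 8 and 11 in OGD. Its groups did not overlap, and the log2 fold change was -1.05 (SE 0.49, interval -2.33 to 0.24, edgeR unadjusted p = 0.0901). With each library left out in turn it ran from -1.38 to -0.61. Rps15a.1 had 52 and 36 against 56 and 54 counts, a log2 fold change of 0.39 (SE 0.29). Rps26, which lies at the messenger RNA exit of the 40S subunit, had 45 and 52 against 43 and 36 counts, a log2 fold change of -0.25 (SE 0.29). A further 5 tested 40S loci (Rps15, Rps20, Rps12, Rps29 and Rps14) had log2 fold changes from -0.13 to 0.06. In Rps20 the counts were 42 and 41 against 42 and 38.

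Of the 5 loci with too few counts to test, 4 are named here, chosen after their values were seen. Rps10 had 1 count in 3 libraries and 56 in OGD library 1, so the count of this group rests on that library. The nearest listed transcript, 166 bases away, had 43 and 21 counts in control and 37 and 31 in OGD. Rps23 had 9, 10, 10 and 5 counts in the order control 1, control 2, OGD 1, OGD 2, and Rpl29 had 4, 7, 10 and 9. Rpl3 (2, 0, 0 and 2) was under the floor of 3 counts in every library, so no ratio is given.

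At some loci libraries of the same group differed more than the groups did. Rps2 had 795 and 648 counts in control, 920 in OGD library 1 and 353 in OGD library 2. The lowest and highest values were thus both in the OGD group (347 and 147 CPM), and the log2 fold change of -0.15 had an interval of -1.27 to 0.97. Without OGD library 2 it was 0.34, and without OGD library 1 it was -0.88. In the paralog Rpl22l1 both libraries numbered 2 stood above both numbered 1, at 26.3 and 32.9 against 18.9 and 17.3 CPM. Other loci also split by library number, Rpl36a and Rpl15 among them. Rpl36a had 5.98 and 5.00 CPM in libraries numbered 2 against 2.55 and 2.64 in those numbered 1. Rpl15 went the other way, with 17.5 and 16.3 against 28.4 and 24.1. Of the 8 marker lists given at the end, those of fibroblasts, neurons, microglia and the oligodendrocyte lineage also stood higher in both libraries numbered 2, and those of astrocytes and dividing cells lower. The part of these cells in the counts of Rpl22l1, Rpl36a and Rpl15 was not tested. What the library number marks is not in the labels.

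**Figure D3:**
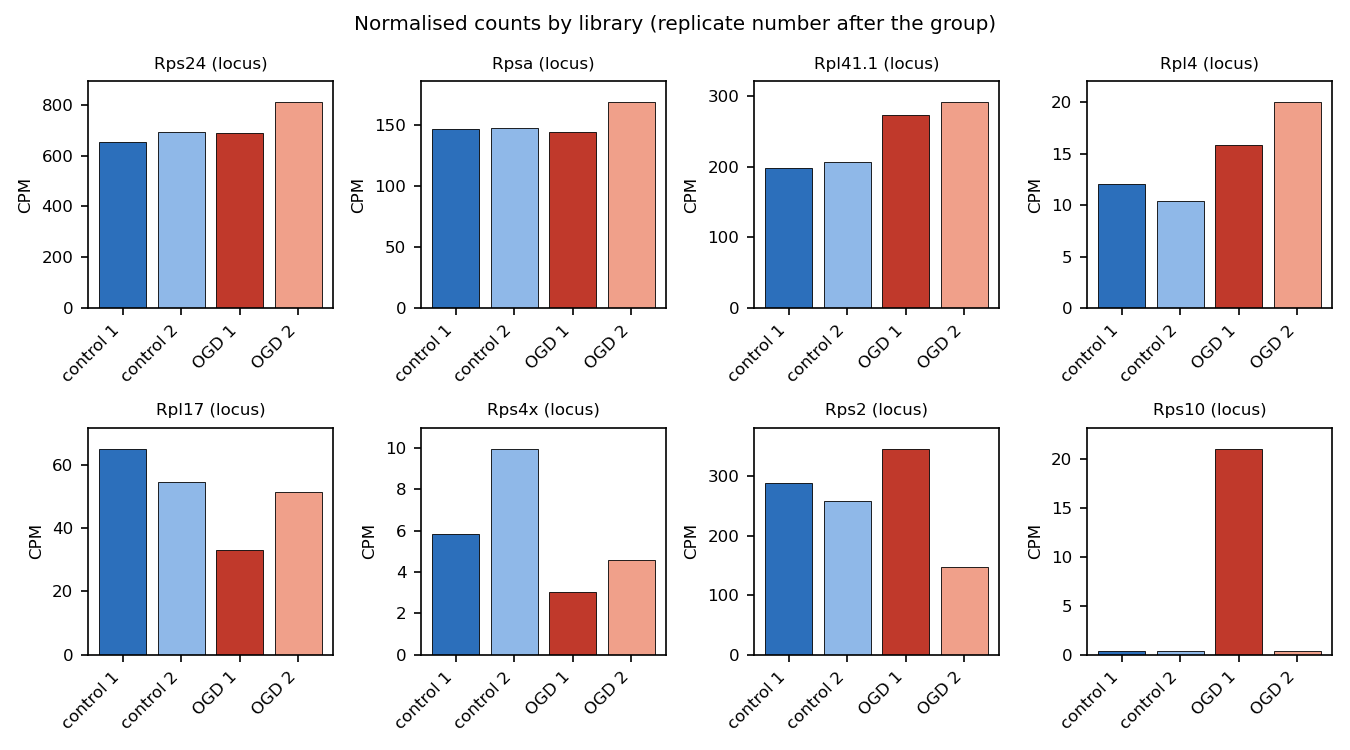
CPM of 8 loci in each of the 4 libraries; blue bars are control and red bars OGD, with the replicate number under each. Rps24 and Rpsa are nearly level, Rpl41.1 and Rpl4 are higher and Rpl17 and Rps4x lower in both OGD bars, and single libraries set Rps2 and Rps10 apart.

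Taken as deposited, the members were short RNAs. The 53 transcripts were 279 to 2623 bases long, with a median of 682. By name 14 were unspliced, and in 13 of these the length equalled the genomic span; the other 39 were spliced. Unspliced transcripts held 8.90% and 9.91% of member counts in control and 11.2% and 9.83% in OGD, and their median FPKM was 1.80 against 3.84 for the spliced ones. In 27 loci there was 1 transcript and in 13 there were 2. Tested singly, 46 transcripts had enough counts, and edgeR called 0 of them (0.00918% of all transcripts tested), with 1 at an unadjusted p under 0.05 (2.68%).

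The share of a locus's counts taken by each transcript was steady in some loci and not in others. In Rps24, transcript Rps24.e took 90.8% and 91.1% in control and 91.1% and 91.5% in OGD. In Rpl24 the transcript Rpl24.c took 65.3% and 63.4% in control and 52.5% and 52.3% in OGD. These groups did not overlap. That held at 4 of the 13 such loci (Rpl24, Rps16, Rps27 and Rps24), a share close to the 31.4% of all tested loci with 2 transcripts. At Rps24 the groups were barely apart, with 91.1443% in control library 2 and 91.1475% in OGD library 1. Rpl24.c itself did not pass the test (edgeR log2 fold change -0.45, SE 0.31, unadjusted p = 0.216). The 2 transcripts of Rpl41.1 both lay higher in OGD, at 268 and 212 against 351 and 349 counts for Rpl41.1.b and at 277 and 308 against 376 and 350 for Rpl41.1.c. Their log2 fold changes were 0.61 (SE 0.20) and 0.36 (SE 0.21). In Rpl22l1 the share of Rpl22l1.b followed the library number, at 53.8% and 71.2% in control and 47.8% and 69.6% in OGD.

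**Figure D4:**
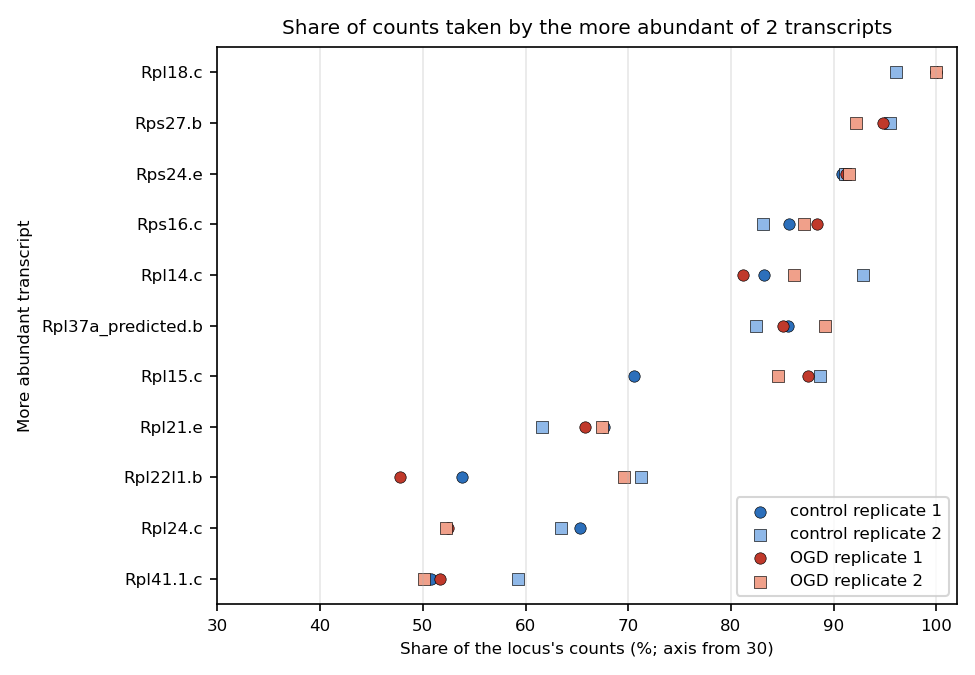
Share of counts, in percent, of the more abundant transcript at 11 of the 13 loci with 2 transcripts, by library; blue is control and red OGD, and the axis starts at 30. Rps24.e lies within 1 percentage point across libraries, and Rpl24.c splits by group.

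Within groups, and over the range of all 4 libraries, the CPM of ribosomal protein loci lay closer together than that of the tested loci at large. This difference is described here and not tested. All 4 libraries lay within a 2-fold range of CPM at 30 of the 35 (85.7%), against 65.4% of all tested loci. The median absolute log2 difference was 0.24 between the control libraries and 0.26 between the OGD libraries for members, and 0.37 and 0.34 for all tested loci. Across groups, between libraries of the same number, the members' medians were 0.26 (number 1) and 0.23 (number 2), and those of all tested loci were 0.26 and 0.30. For libraries numbered 1 the members and all tested loci were therefore equally far apart. Members also had more counts, with a median mean count of 132 against 49.5, and the part of depth in the smaller spread was not tested.

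Of the 39 member genes 18 hold snoRNAs in RefSeq, 37 in all. The loci of these host genes had a median FPKM of 3.77 and those of the other genes 3.15. Of 16 tested host loci 11 had a log2 fold change above 0, with a median of 0.11, and of 19 others 12 did, with a median of 0.06. Host loci summed to 1457 and 1568 CPM in control and 1566 and 1616 in OGD, and the others to 1455 and 1563 against 1596 and 1779. Close neighbours in the tables were few. The signal recognition particle RNA Rn7sl1, 230 bases from Rps29, had 42456 and 57034 counts in control and 51823 and 41440 in OGD, while Rps29 had 25 and 37 against 40 and 21. The transcript nushaw, 57 bases from Rps21.1, had 215 and 216 against 278 and 219 counts.

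Loci of other genes in the same pathway were read beside the members, and none of them passed the test, which 0.0835% of all tested loci did. Of the translation factors and further genes with TOP messenger RNAs, 11 loci were listed and 10 tested, 6 above 0 and 4 below, with a median log2 fold change of 0.07. Pabpc1, whose protein binds poly(A) tails, counted 3654 and 3682 in control against 4494 and 5080 in OGD, a log2 fold change of 0.45 (SE 0.19, edgeR unadjusted p = 0.0725). Its groups stood apart. Gas5, a snoRNA host that begins with a TOP tract itself, had 913 and 655 against 724 and 787 counts and overlapped (log2 fold change 0.02). The histone chaperone Nap1l1 had 615 and 442 against 596 and 504.

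Ribosome biogenesis had 31 loci with 17 tested, 9 above 0 and 8 below, with a median of 0.13. In it the nucleolar GTPase Gnl3 had a log2 fold change of -0.06, the SUMO protease Senp3 0.13 and Ubtf, which activates ribosomal RNA transcription, 0.36. The mTOR and S6 kinase pathway had 16 loci and 12 tested, 3 above 0 and 9 below, with a median of -0.11. There the translation initiation factors Eif4g1 and Eif4g3 had -0.52 and -0.06, and Larp1, which binds TOP messenger RNAs, -0.07. Eif4g1 had 114 and 137 counts in control and 79 and 89 in OGD, without overlap. Mitochondrial ribosomal proteins had 23 loci and 15 tested, 13 above 0 and 2 below, with a median of 0.31. Their most abundant loci, Mrpl52, Mrpl48 and Mrps30, had 0.09, 0.31 and -0.02. In each of these 4 lists edgeR gave 0 loci at an unadjusted p under 0.05 (2.33% of all tested loci), and DESeq2 called 0 (0.404%). At such shares, lists of 10 to 17 tested loci would hold few or none.

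**Figure D5:**
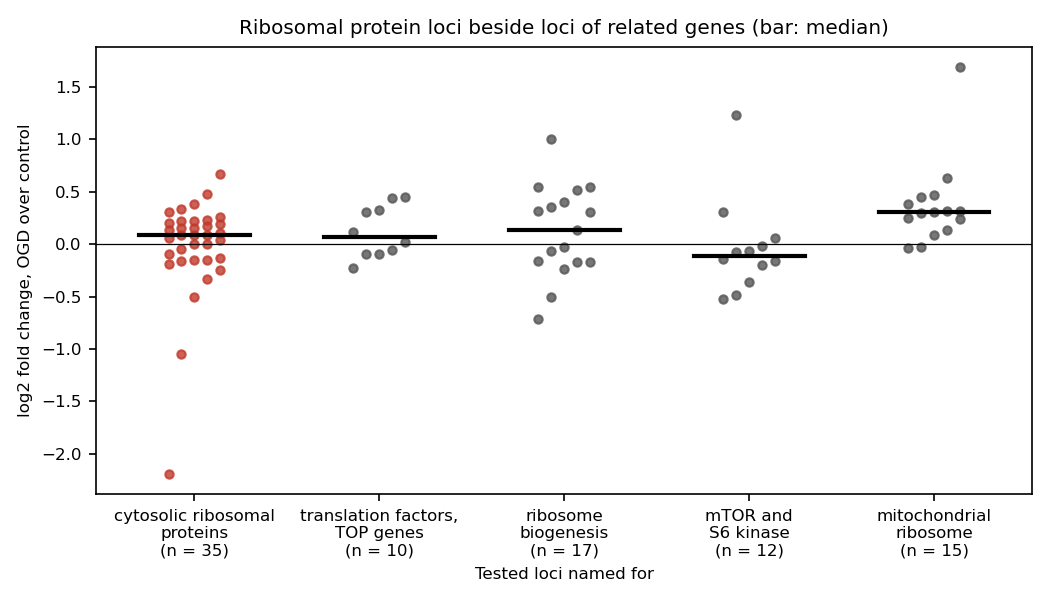
Log2 fold change, OGD over control, of each tested locus in 5 gene lists, with a bar at the median. Of the 35 ribosomal protein loci, with a median of 0.09, 31 lie under 0.5 in size. Rpl4 stands above them at 0.68, and Rpl17, Rps4x and Rpl41 stand below. The 15 mitochondrial ribosomal protein loci have a median of 0.31.

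Each library held 2513804 to 2646300 lncRNA counts, 9.98% to 10.6% of the total that its FPKM values imply. Marker genes can be read only where the tables list a transcript with that name. Of 10 astrocyte markers 5 had counts (Aldoc, Gfap, Glul, Slc1a2 and Slc1a3), summing to 34.3 to 51.0 CPM in control and 33.8 to 64.4 in OGD; Aldh1l1, Aqp4, Gja1, S100b and Sox9 were not listed. Neuron markers (4 of 9) summed to 83.0 to 112 and 108 to 113 CPM. Microglia and macrophage markers (3 of 8) summed to 28.4 to 43.4 and 10.9 to 35.9, and oligodendrocyte lineage markers (3 of 7) to 8.01 to 17.1 and 7.91 to 10.0. Fibroblast and meningeal markers (2 of 5, Col1a1 and Col3a1) summed to 160 to 344 and 184 to 325, and endothelial and mural markers (2 of 7, Abcc9 and Pecam1) to 3.64 to 7.57 and 25.0 to 32.0. Markers of dividing cells (2 of 4) stood at 8.37 to 13.1 and 11.3 to 13.6, and none of 3 ependymal markers was listed. No tested marker passed the test, which 0.0835% of all tested loci did.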

How the data were processed

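RNA from 4 libraries was mapped with HISAT2 and assembled with StringTie, per the submitters' processing notes; versions, counter and strand setting stand as not given in the sources used here. These notes name a mouse build (mm9) for rat samples, while the tables list 20 numbered chromosomes, so positions are printed as the tables give them, with no build. The authors deposited, per the file headers, a whole-number count and an FPKM for each lncRNA transcript.

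Counts were summed by gene name and chromosome, filtered with filterByExpr, scaled with TMM and tested with edgeR 4.0.16 (quasi-likelihood F test on group, R 4.3.3) over 9581 loci, with Benjamini-Hochberg adjustment and a threshold of 0.05. CPM is the count per 1000000 of the TMM-scaled library. The SE is the log2 fold change divided by the root of F, and the 95% interval uses the t distribution at the test's degrees of freedom. Log2 differences between libraries used log2(CPM + 1). The scripts were tested on simulated data. FPKM served for levels per length only. Names, snoRNAs, pseudogenes and promoter windows came from RefSeq GRCr8.

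Alternatives were DESeq2 1.42.0, other scalings, filters, transcripts as deposited, a replicate block, each library left out and, chosen after seeing the data, names joined. The members, lists and tests were chosen with earlier results of these data known. Named members were those with an adjusted p under 0.05, the 12 with the highest FPKM, the 6 with the largest log2 fold change each way and the 6 with the largest difference between replicate numbers. From each related list the 3 with the highest CPM were named. A further 3 loci count in the sums and totals but are not reported here singly.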

Additional observations from a re-analysis of the deposited data

How the results depend on the processing

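The number of ribosomal protein loci called was 0 under each of the 13 alternatives run, with 0 to 2 members at an unadjusted p under 0.05. All loci called ranged from 0 (no filter on low counts, or without control replicate 1, control replicate 2 or OGD replicate 1) through 1 (transcripts as deposited), 12 (without OGD replicate 2) and 21 (replicate block) to 38 (DESeq2), against 8. The summed level had a log2 difference of 0.07 to 0.17 over its 9 alternatives. Of 241 values of 21 named members under alternatives 230 kept their direction and 11, at 7 members, turned, all when a library was left out. Those members' ranges over the 4 leave-outs were -0.88 to 0.34 (Rps2), -0.38 to 0.56 (Rpl22l1), -0.68 to 0.57 (Rpl36a), -0.48 to 0.21 (Rpl15), -0.034 to 0.22 (Rps27), -0.026 to 0.28 (Rpl14) and -0.028 to 0.21 (Rpsa); each fit had 1 library fewer. Rps26 (-0.40 to -0.06), Rps15a.1 (0.21 to 0.61), Rpl17 (-0.85 to -0.21) and Rps4x (-1.38 to -0.61) kept their direction but moved in size. Rpl41 had -1.15 without OGD replicate 1 and -7.78 without OGD replicate 2. A leave-out leaves 1 sample in a group, which is assumed to vary like the others. With the replicate block, edgeR gave Rpl41.1 a log2 fold change of 0.48 (unadjusted p = 0.0115) and Rpl41 -2.43 (0.0390), with adjusted p = 0.873 for both. Deviations of libraries with the same number correlated at r = 0.304 across tested loci, but no label says what that number stands for. Transcripts as deposited give no single value for the 13 loci with 2 transcripts. Counts were low at Rpl36a, Rps4x and the 5 untested loci; at Rpl41 they were low and also spread between libraries, and the part of each in its interval was not tested.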
